A study of Ovis aries with 12 samples.

Results

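Little-studied miRNAs whose levels followed the endothelial miRNA miR-126 were described across cultured pulmonary artery endothelial cells of lambs. They are bta-miR-1468, both arms of miR-2483 (bta-miR-2483-5p and bta-miR-2483-3p), hsa-miR-3065-5p, and an entry of miR-338 that is listed first as rno-miR-338-3p and also carries the cow name bta-miR-338. They make up 5 of the 470 entries of the count table and were taken by name. The names were chosen by the correlation of measured levels with miR-126 in an earlier look at these same libraries, so their likeness to miR-126 is given as a description, with no test. The PPHN group holds 6 libraries (PPHN 7 to PPHN 12) from lambs with persistent pulmonary hypertension of the newborn, modelled by fetal surgery at about day 125 of gestation, in which the ductus arteriosus was tied off for 5 to 7 days. The control group holds 6 libraries (control 1 to control 6) from lambs with sham surgery. In both groups the cells came from the main pulmonary artery, were purified with CD31 beads and were cultured in medium with serum between passages 2 and 5. Whether every library stands for a separate lamb is not stated in the labels; p-values therefore rest on the spread among these 12 libraries, which may in part be technical.

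A miRNA is a short RNA cut from a hairpin, whose 2 arms (5p and 3p) can each guide silencing of messenger RNAs. The miRNA miR-126 is made from an intron of EGFL7 and is a known mark of endothelial cells, while miR-143 and miR-145 come from 1 cluster known for contractile smooth muscle. In humans, miR-338 lies in an intron of AATK, a kinase gene known from neural tissue, and miR-3065 is made from the opposite strand of the same place. In rodents miR-338 is known for helping oligodendrocytes mature. The miRNA miR-1468 is X-linked in humans, and miR-2483 was named in cattle; for neither is a role in endothelial cells given here.

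The summed count of a library lay between 2250077 (PPHN 11) and 17740932 (PPHN 7). PPHN 8, PPHN 11 and control 2 stood apart: the most abundant miR-126 entry, mmu-miR-126b-3p, was at 195, 176 and 161 CPM there and at 10588 CPM or more in the other 9 libraries. These 3 libraries also had the lowest totals, and the part of depth in what follows was not tested. CPM stands for counts scaled to the library total of the listed entries, after TMM scaling. Fewer cells of a type and less RNA per cell cannot be told apart in such samples. The counts per library are small for some of the entries: 3 counts, taken as the limit that a count of 0 allows, equal 0.169 to 1.33 CPM before scaling.

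The most abundant of the 5, bta-miR-1468, stood at rank 91 of 468 tested entries by level. Its level in PPHN 7 to PPHN 12 was 840, 54.1, 312, 1186, 22.6 and 396 CPM. In control 1 to control 6 it was 1699, 30.0, 681, 55.5, 4480 and 3482 CPM. The groups overlapped. The low libraries were PPHN 8, PPHN 11, control 2 and control 4, of which control 4 held 10588 CPM of mmu-miR-126b-3p, and the high ones were control 5 and control 6. The highest level was 198-fold the lowest. Even the smallest count, 56 of 2250077 in PPHN 11, was well above the limit of detection, at 24.9 CPM before scaling (exact 95% interval 18.8 to 32.3, counting error only).

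The arms of miR-2483 come from 1 hairpin and had almost the same profile. The entry bta-miR-2483-3p was at 110, 7.01, 52.7, 58.6, 1.62 and 30.3 CPM in PPHN 7 to PPHN 12. In control 1 to control 6 it was at 86.2, 3.55, 3.84, 0.728, 327 and 71.1 CPM. Control 5 was highest by a wide margin, and control 3 and control 4 lay as low as the libraries with little miR-126. Control 4, with 9 counts, was the lowest of the 12 libraries, although it held far more miR-126 than PPHN 8, PPHN 11 or control 2. The opposite arm, bta-miR-2483-5p, was at 83.6, 3.67, 48.9, 49.2, 2.83 and 21.4 CPM in PPHN 7 to PPHN 12, and at 55.8, 0.987, 3.04, 0, 253 and 41.3 CPM in control 1 to control 6. The groups overlapped for both arms, and control 4 had 0 counts of the 5p arm in 11171643, which allows up to 0.269 CPM before scaling.

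The miRNAs of the AATK locus were scarcer. The entry hsa-miR-3065-5p was at 18.9, 0, 11.5, 13.01, 1.21 and 20.8 CPM in PPHN 7 to PPHN 12, and at 6.17, 0.197, 2.72, 2.43, 35.6 and 18.6 CPM in control 1 to control 6. Its counts were 0, 3 and 1 in PPHN 8, PPHN 11 and control 2, at or under the limit of detection. The entry rno-miR-338-3p was at 7.04, 0, 2.30, 5.65, 0 and 6.63 CPM in PPHN 7 to PPHN 12, and at 2.34, 0, 0.961, 0.728, 14.1 and 3.90 CPM in control 1 to control 6. It had 0 counts in PPHN 8, PPHN 11 and control 2, and 6 to 148 counts in the other libraries. For both entries control 5 was highest and the groups overlapped. Control 3 and control 4 had 6 and 9 counts of rno-miR-338-3p, or 0.749 and 0.806 CPM before scaling, under the 1.13 and 1.33 CPM that 0 counts allow in PPHN 8 and PPHN 11, so a difference from those libraries was not detectable at this depth.

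**Figure D1:**
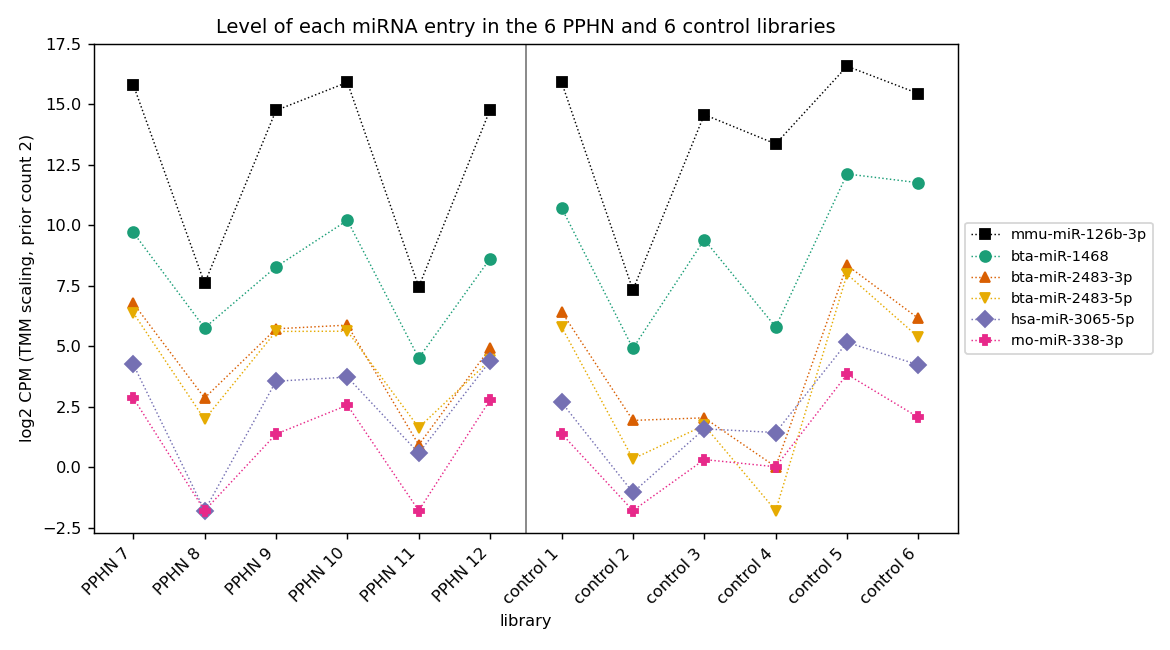
Level of each of the 5 entries and of mmu-miR-126b-3p in the 6 PPHN libraries (left) and the 6 control libraries (right), as log2 CPM with a prior count of 2; dotted lines only join points of 1 entry. All 6 curves dip in PPHN 8, PPHN 11 and control 2 and peak, among controls, in control 5. Among the controls that hold miR-126, all 6 curves are lowest in control 4.

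Over the 12 libraries, the SD of log2 CPM was 2.65 for bta-miR-1468, 2.66 and 2.91 for the 3p and 5p arms of miR-2483, 2.25 for hsa-miR-3065-5p and 1.99 for rno-miR-338-3p, against a median of 0.742 over the 468 entries and 3.61 for mmu-miR-126b-3p. The 5 entries thus held ranks 8 to 45 by variability. They were chosen for following miR-126, whose entry mmu-miR-126b-3p held rank 2, so a high rank is in part set by that choice. In the libraries with little miR-126, bta-miR-1468 and both arms of miR-2483 were a larger share of miR-126 than elsewhere. Those libraries were set apart by their low mmu-miR-126b-3p, by which the share divides. A larger share there is therefore in part set in advance and is given as a description. The counts of bta-miR-1468 equalled 27.8%, 12.8% and 18.6% of those of mmu-miR-126b-3p in PPHN 8, PPHN 11 and control 2. In the other libraries that share was 1.13% to 1.92% for PPHN and 0.525% to 7.78% for control, where the lowest was control 4 and the highest control 6. The counts of bta-miR-2483-3p equalled 3.60%, 0.917% and 2.21% in PPHN 8, PPHN 11 and control 2, and at most 0.333% in the other libraries; for the 5p arm the shares were 1.89%, 1.61% and 0.613%, and at most 0.258%. With 0 to 3 counts in those 3 libraries, the shares of hsa-miR-3065-5p and rno-miR-338-3p could not be compared.

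Among the 9 libraries with more than 1000 CPM of mmu-miR-126b-3p, Pearson's r of log2 CPM with that entry was 0.897 for bta-miR-1468 (Spearman's rho 0.850), 0.923 for bta-miR-2483-3p (0.900) and 0.918 for bta-miR-2483-5p (0.900). It was 0.797 for rno-miR-338-3p (0.750) and 0.713 for hsa-miR-3065-5p (0.600). Out of 467 entries ranked by this r, the entries held ranks 8, 3, 5, 18 and 29 in the order given. The points share their libraries, scaling and depth. As deviations from the group means, r was 0.935, 0.937, 0.943, 0.829 and 0.746 for bta-miR-1468, bta-miR-2483-3p, bta-miR-2483-5p, rno-miR-338-3p and hsa-miR-3065-5p. Without control 4 and control 5, the libraries farthest from the median miR-126 level, r was 0.645 for bta-miR-1468, 0.740 and 0.713 for the 3p and 5p arms of miR-2483, 0.476 for rno-miR-338-3p and 0.279 for hsa-miR-3065-5p (7 libraries). The relation of hsa-miR-3065-5p to miR-126 within these libraries therefore rested on control 4 and control 5. Per log2 unit of miR-126, the fitted level changed by 1.79 log2 units for bta-miR-1468 and by 2.44 and 2.76 for the 3p and 5p arms of miR-2483, against 1.03 for rno-miR-338-3p and 0.95 for hsa-miR-3065-5p. In control 4, lowest in miR-126 of the 9, bta-miR-2483-5p had 0 counts, so its point there is set by the prior count. The 3p arm and rno-miR-338-3p had 9 counts each there. These slopes thus rest in part on values at or near the floor.

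When the 3 libraries with little miR-126 were counted in, the order of likeness depended on the measure. Over all 12, r was 0.919 for rno-miR-338-3p, 0.898 for hsa-miR-3065-5p, 0.885 for bta-miR-1468, 0.710 for bta-miR-2483-3p and 0.673 for bta-miR-2483-5p. Spearman's rho was 0.887, 0.811, 0.930, 0.895 and 0.902 in the same order, so by rank rno-miR-338-3p and hsa-miR-3065-5p were the least like miR-126, as among the 9 libraries. These values join separate clusters of libraries and are given only because the libraries were first compared that way. In the 3 libraries with little miR-126, rno-miR-338-3p had 0 counts and hsa-miR-3065-5p had 0 to 3. Their points there lie at or near the floor set by the prior count, so their r over all 12 rests in part on that floor. The lower r of miR-2483 went with its low levels in control 3 and control 4, where miR-126 was at 24533 and 10588 CPM. The entry rno-miR-338-3p was low in the same 2 controls, at 0.961 and 0.728 CPM.

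With oar-miR-143, the likeness was weak within the libraries that held miR-126. The level of oar-miR-143 was above 100000 CPM in PPHN 7, PPHN 9, PPHN 12, control 1, control 3 and control 6, and at most 18366 CPM in the other 6. Among the 9 libraries with miR-126, r with oar-miR-143 was 0.216 for bta-miR-1468, 0.162 and 0.228 for the 3p and 5p arms of miR-2483, 0.025 for hsa-miR-3065-5p and -0.122 for rno-miR-338-3p. Without control 4 these values were -0.483, -0.603, -0.644, -0.544 and -0.747 in the same order, so the sign for 4 of the 5 rested on that library. With another single library left out they reached up to 0.608, 0.521, 0.578, 0.368 and 0.239. The values therefore depended on single libraries in both directions. Over all 12 libraries, r with oar-miR-143 was 0.663, 0.494, 0.504, 0.633 and 0.579 in the same order, ranks 32 to 86 of 467; these values join separate clusters too. Among the 6 libraries rich in oar-miR-143, r was 0.161 for bta-miR-1468 and lay between -0.703 and -0.440 for the other 4 entries. Control 5 shows the contrast most plainly: it held the highest level of all 5 entries and of mmu-miR-126b-3p (98168 CPM), but only 7522 CPM of oar-miR-143 and, of its cluster partner ssc-miR-145-5p, 2.86 CPM.

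**Figure D2:**
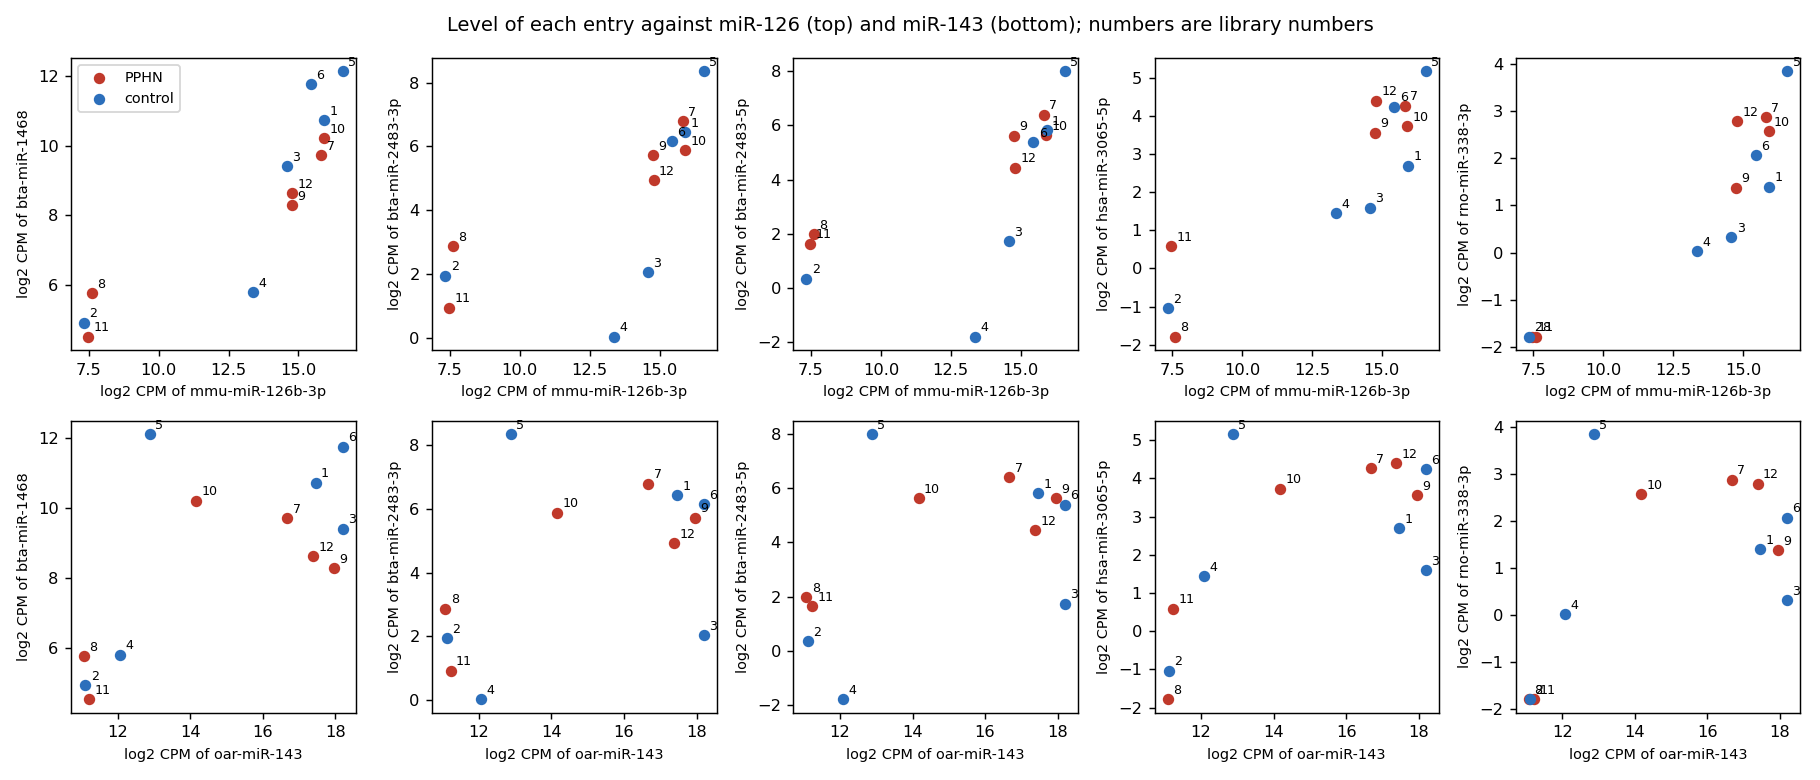
Level of each of the 5 entries (vertical, log2 CPM) against mmu-miR-126b-3p (top row) and oar-miR-143 (bottom row), with PPHN libraries in red and control libraries in blue, each point 1 library. In the top row PPHN 8, PPHN 11 and control 2 form a separate cluster at the left, and in the bottom row control 5 combines the highest level of each entry with only 7522 CPM of oar-miR-143.

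The comparison of PPHN with control, which the study was made for, was not used to choose these miRNAs. The level of bta-miR-1468 averaged 468 ± 459 CPM over the PPHN libraries, against 1738 ± 1867 CPM over the controls (SD, n = 6 each), a log2 fold change of -1.89 (SE 1.18, 95% interval -4.46 to 0.68). This difference did not pass the test (edgeR quasi-likelihood, Benjamini-Hochberg adjusted p = 0.591). The 3p arm of miR-2483 averaged 43.4 ± 40.1 CPM over the PPHN libraries, against 82.0 ± 125.6 CPM over the controls, for a log2 fold change of -0.91 (SE 1.27, 95% interval -3.68 to 1.86, edgeR adjusted p = 0.906). The 5p arm averaged 34.9 ± 31.5 CPM over the PPHN libraries, against 59.1 ± 98.0 CPM over the controls, for a log2 fold change of -0.75 (SE 1.41, 95% interval -3.82 to 2.32, edgeR adjusted p = 0.920). For hsa-miR-3065-5p PPHN libraries averaged 10.9 ± 8.71 CPM and controls 11.0 ± 13.8 CPM (log2 fold change 0.0047, SE 1.08, 95% interval -2.36 to 2.37). For rno-miR-338-3p, PPHN libraries averaged 3.60 ± 3.25 CPM and controls 3.67 ± 5.29 CPM (log2 fold change -0.0028, SE 1.16). These intervals are wide, so a missing call does not show that the groups are alike.

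None of the 5 entries passed an adjusted p of 0.05, where the edgeR test called 0 of 468 entries (0%), with 49 (10.5%) at an unadjusted p under 0.05, to which the 5 contributed 0. DESeq2 called 12 entries and limma-voom 0, and these 5 were not among the calls. The groups overlapped for all 5, while they did not overlap for 1.28% of tested entries. The log2 fold change was below 0 for 4 of the 5, against 54.5% of all entries, and 1 of these 4 is the value next to 0 of rno-miR-338-3p. In the authors' deposited table, bta-miR-1468 had a log2 fold change of -1.89 from edgeR, with a q-value of 0.586.

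Control 5 set the means of the control group for 4 of the 5 entries. Without it, the log2 fold change was 0.40 for bta-miR-2483-3p, 0.80 for bta-miR-2483-5p, 1.25 for rno-miR-338-3p and 0.88 for hsa-miR-3065-5p, all on the side of higher levels in PPHN, and none passed the test (edgeR adjusted p of 0.823 to 0.961). For bta-miR-1468 the value without control 5 was -1.35, and it stayed below 0 whichever library was left out (-2.53 to -1.35). With the miR-126 level as a covariate, the log2 fold change was -0.97 for bta-miR-1468 (SE 0.69) and 0.79 for rno-miR-338-3p (SE 0.44). When PPHN 8, PPHN 11 and control 2 were also left out, bta-miR-1468 was at -1.21 (SE 0.51, edgeR adjusted p = 0.501). In that fit both arms of miR-2483 were on the opposite side, at 1.16 (SE 0.64) for 3p and 1.90 (SE 0.93) for 5p, again without passing the test. The members were chosen for following miR-126 in these same libraries. A smaller SE with the miR-126 level as a covariate is therefore in part set by that choice.

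**Figure D3:**
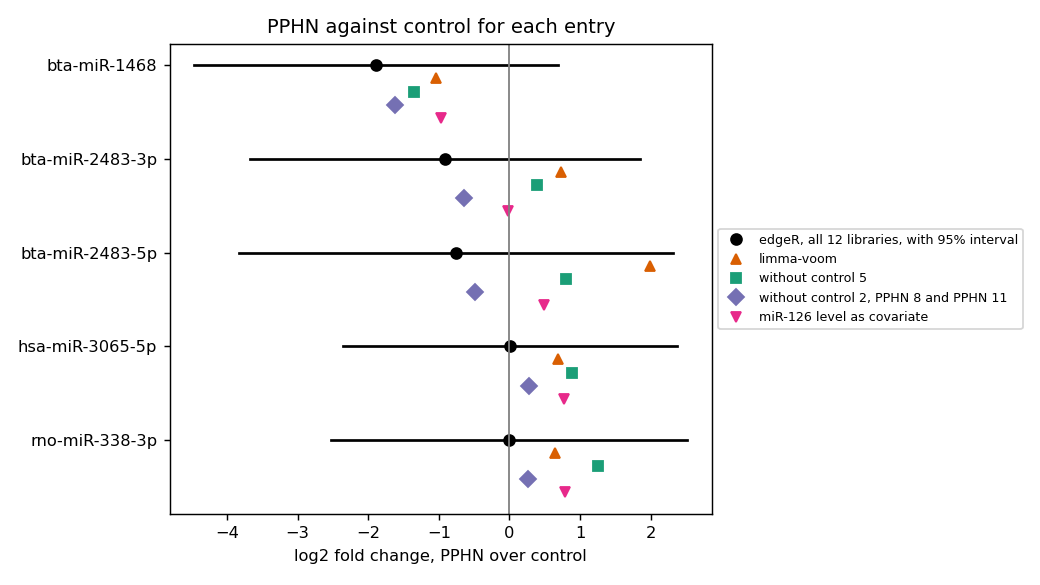
Log2 fold change of PPHN over control for each of the 5 entries: black points with lines are the edgeR estimates with 95% intervals over all 12 libraries, and coloured marks are the estimates under 4 other settings. Every interval crosses 0; bta-miR-1468 stays below 0 in the settings drawn, and the other entries change side in at least 1 of the alternatives tried, hsa-miR-3065-5p in 12.

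The balance between partners within a library was also compared between PPHN and control. Entries that both follow miR-126 also follow each other, so how steady a ratio was across libraries is in part set by the choice of these miRNAs and is given as a description. For miR-2483, the 5p arm made up 43.1%, 34.4%, 48.1%, 45.6% and 41.5% of the counts of both arms in PPHN 7, PPHN 8, PPHN 9, PPHN 10 and PPHN 12. It made up 39.3%, 21.7%, 44.2%, 43.7% and 36.7% in control 1, control 2, control 3, control 5 and control 6. Both arms were thus recovered at like levels, with somewhat more 3p in each of these libraries. PPHN 11 and control 4 had under 10 counts of either arm and were left out. The mean log2 ratio of 5p to 3p was -0.43 ± 0.30 in PPHN and -0.77 ± 0.58 in control (SD, n = 5 each), and the difference of 0.34 was within the spread (exact two-sided permutation p = 0.317, adjusted over the 2 ratios tested p = 0.635). The libraries with the most counts, PPHN 7 at 43.1% (exact 95% interval 41.4 to 44.9) and control 5 at 43.7% (42.4 to 44.9), overlapped.

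Of the counts of hsa-miR-3065-5p and rno-miR-338-3p together, miR-3065-5p made up 72.9%, 83.3%, 69.7% and 75.8% in PPHN 7, PPHN 9, PPHN 10 and PPHN 12. It made up 72.5%, 73.9%, 76.9%, 71.6% and 82.7% in control 1, control 3, control 4, control 5 and control 6. The log2 ratio of miR-3065-5p to miR-338-3p ran from 1.19 in PPHN 10 to 2.29 in PPHN 9, while the level of hsa-miR-3065-5p ran over 2.43 to 35.6 CPM in these 9 libraries. The mean log2 ratio was 1.63 ± 0.47 in PPHN (SD, n = 4) and 1.60 ± 0.37 in control (SD, n = 5), a difference of 0.03 that was far within the spread (exact two-sided permutation p = 0.881, adjusted over the 2 ratios tested p = 0.881). The smallest p that this design allows is 0.00794. Whether the authors counted by strand is not given in the sources used here, and without strand the reads of such a pair cannot be told apart.

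**Figure D4:**
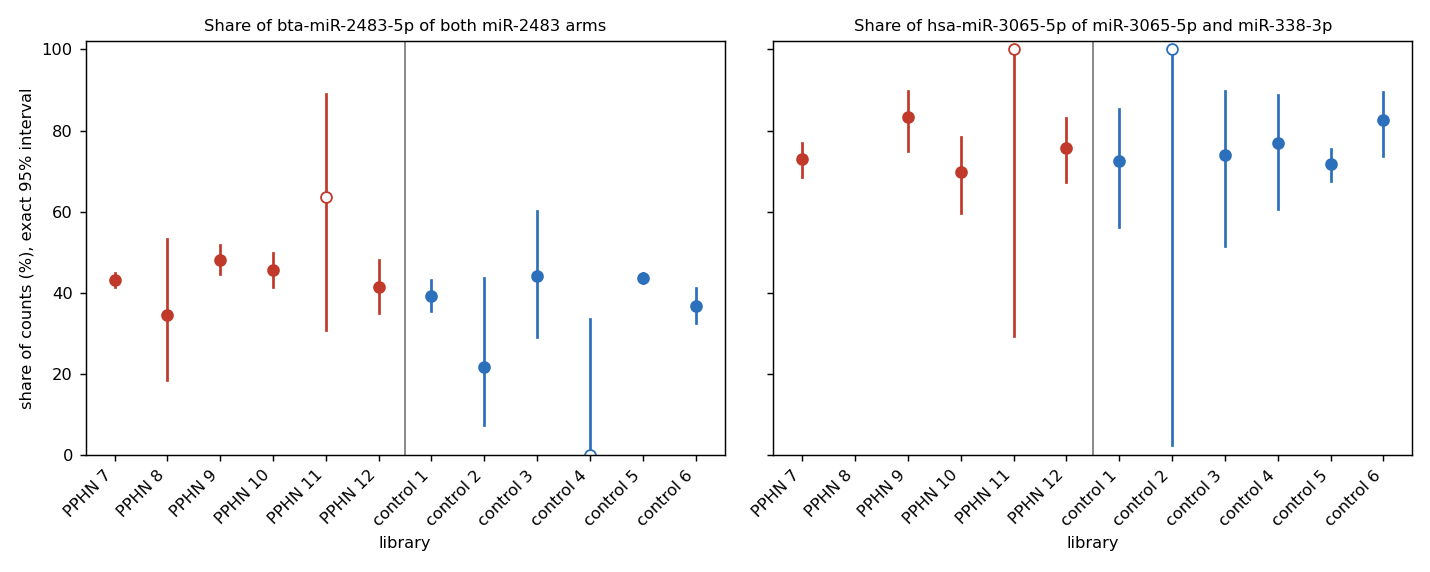
Share of the 5p arm among the counts of both miR-2483 arms (left) and share of hsa-miR-3065-5p among the counts of it and rno-miR-338-3p (right) in each library, with exact 95% intervals, PPHN in red and control in blue; open points are libraries with under 10 counts of both entries, which were not tested, and PPHN 8 has no count for the right panel. The filled points lie between 21.7% and 48.1% on the left and between 69.7% and 83.3% on the right, with the groups overlapping in both panels.

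Within the 9 libraries with miR-126, the arms of miR-2483 had r = 0.991 with each other and hsa-miR-3065-5p had r = 0.955 with rno-miR-338-3p, while bta-miR-1468 had r = 0.621 to 0.805 with the other 4. Partners from 1 locus were thus closer to each other than to the rest of the set. Outside the set and the miR-126 entries, the entry most like bta-miR-2483-3p over the 12 libraries was ppt-miR1029, which carries a moss name (r = 0.994). It was at 65.8, 4.67, 30.1, 36.6, 1.21 and 18.1 CPM in PPHN 7 to PPHN 12, and at 57.7, 3.16, 1.44, 0.648, 207 and 39.9 CPM in control 1 to control 6. Its total count was 0.619 of that of bta-miR-2483-3p, and whether the same reads were counted in both was not tested. The next most like were bta-miR-2312 (r = 0.898) and rno-miR-195-3p (r = 0.876), and for the 5p arm bta-miR-2474 (r = 0.917). Among the 9 libraries with miR-126 these r were 0.863, 0.935 and 0.956 in the same order. There ppt-miR1029 had r = 0.993 with bta-miR-2483-3p.

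For bta-miR-1468 the most like entries were bta-miR-2285w (r = 0.923), rno-miR-195-3p (r = 0.915), rno-miR-497-5p (r = 0.880), bta-miR-2285z (r = 0.875) and bta-miR-2285x (r = 0.864). For hsa-miR-3065-5p they were cgr-miR-582 (r = 0.877), rno-miR-195-3p (r = 0.874), bta-miR-2285z (r = 0.860), rno-miR-497-5p (r = 0.856) and hsa-miR-449a (r = 0.825). These r are over all 12 libraries and join separate clusters. Among the 9 libraries with miR-126 they were 0.856, 0.801, 0.832, 0.864 and 0.779 for bta-miR-1468, in the same order. The values for hsa-miR-3065-5p were 0.764, 0.830, 0.654, 0.852 and 0.585. All these entries had r of 0.783 to 0.918 with mmu-miR-126b-3p over the 12 libraries. Since the members were chosen for following miR-126, this likeness is in part set by that choice. The entry rno-miR-195-3p was among the 5 most like entries of all 4 members that averaged at least 10 CPM, but with only 498 counts over the 12 libraries. It and rno-miR-497-5p belong to 1 miRNA cluster in mammals. At the other end, the lowest r with bta-miR-1468 over the 12 libraries were those of bta-miR-502b (-0.910), bta-miR-6119-3p (-0.904) and ggo-miR-760 (-0.887). With bta-miR-2483-3p they were those of hsa-miR-532-3p (-0.886), bta-miR-502b (-0.877) and rno-miR-328a-3p (-0.876). With bta-miR-2483-5p they were those of rno-miR-330-5p (-0.882), bta-miR-6123 (-0.871) and bta-miR-210 (-0.838), the last known to be induced when oxygen is low. With hsa-miR-3065-5p they were those of pma-miR-92a (-0.864), cgr-miR-222-3p (-0.839) and gga-miR-365-2-5p (-0.838). Both pma-miR-92a and cgr-miR-222-3p are on the endothelial list described below, with r = -0.692 and -0.800 with mmu-miR-126b-3p. The level of bta-miR-210 in control 5, where the 5 entries were highest, was 3.52 CPM. It was about as low in control 1 (3.62 CPM) and control 6 (3.90 CPM). Its highest level was 210 CPM in PPHN 8, with 119 CPM in control 4. None of these entries passed the test of PPHN against control.

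Lists of cell type miRNAs were set beside these levels, and 0 of their entries were called in either direction. The endothelial list, which holds the miR-126 entries, had 13 of 29 entries higher and 16 lower in PPHN, with a median log2 fold change of -0.17 against -0.08 over all tested entries. Its summed level was 98365 to 167236 CPM in PPHN and 109410 to 190291 CPM in control. That sum includes mmu-miR-126b-3p, which alone was at 98168 CPM in control 5. In control 2, PPHN 8 and PPHN 11, where mmu-miR-126b-3p was at 161, 195 and 176 CPM, the sum was 126966, 125551 and 98365 CPM. A large part of it there came from hsa-miR-92a-3p, at a log2 CPM of 16.2, 15.3 and 14.7. Whether the sum reflects endothelial cells was not tested. The most abundant entry of the list, hsa-miR-92a-3p, was also that with its lowest p (log2 fold change -0.53, SE 0.18, edgeR adjusted p = 0.340). The neural and glial list, named for the tissue where miR-338 is known best, had 4 of 8 entries higher and a summed level of 108 to 153 CPM in PPHN and 121 to 186 CPM in control. Control 5, the peak of rno-miR-338-3p, was at 134 CPM on that list, within the range of the others. The members of that list named by rule are dre-miR-128 (log2 fold change 0.16) and dme-miR-9a-5p (-0.82).

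Markers of other cell types moved between libraries as well. The blood list, with 2 entries led by the red cell miRNA hsa-miR-486-5p, summed to 15.4 to 203.2 CPM in PPHN and 69.0 to 900.4 CPM in control. Both of its entries were lower in PPHN, with 0 past the test. Control 6 at 900.4 CPM and control 5 at 459 CPM were its highest libraries, as they were for bta-miR-1468. PPHN 8 and PPHN 11 were lowest for the list. The order differed elsewhere: control 2 and control 4, low for bta-miR-1468, summed to 159 and 167 CPM on the blood list. Control 3 and PPHN 7 summed to only 69.0 and 76.8 CPM, with bta-miR-1468 at 681 and 840 CPM. The fibroblast list had 12 of 12 entries lower in PPHN, with a median log2 fold change of -0.69 (2727 to 12425 CPM in PPHN and 6068 to 23235 CPM in control, highest in control 3). Over all tested entries 54.5% were lower, with a median of -0.08. The 12 entries are arms and species names of miR-199a, miR-199b, miR-214, miR-140 and miR-152, so they are not separate observations. PPHN 11 was lowest, with hsa-miR-214-3p at a log2 CPM of -1.79, against 3.11 to 8.12 in the other PPHN libraries. The most abundant fibroblast entry was bta-miR-3604, which also carries a miR-199b name, and the lowest p on that list was that of dre-miR-140-3p. Of the 5 smooth muscle entries 4 were lower in PPHN, among them hsa-miR-28-3p, and the list ran over 11428 to 263306 CPM in PPHN and 15809 to 320363 CPM in control. The list was set to hold miR-28 beside miR-143 and miR-145, and hsa-miR-28-3p averaged 12570 CPM in PPHN and 15242 CPM in control. In PPHN 11, with the lowest sum, oar-miR-143 was at 2388 CPM and hsa-miR-28-3p at a log2 CPM of 13.1. The low end of the range was thus mostly miR-28 and does not measure miR-143 and miR-145. The epithelial list had 2 of 2 entries higher, mmu-miR-203-3p and oar-miR-200b, with 34.5 to 159 CPM in PPHN and 1.44 to 402 CPM in control, the highest being control 4. The other 5 controls lay at 1.44 to 10.2 CPM, below every PPHN library, and without control 4 the median log2 fold change of the list was 3.46 in place of 0.46. Control 4 was singled out after its values were seen, and no entry was called without it. The list holds only 2 entries, and mmu-miR-203-3p overlapped without control 4 too, at log2 CPM 3.36 in control 5 against 2.40 in PPHN 7. The part of these other cell types in the levels of the 5 members was not tested.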

How the data were processed

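For 12 libraries the authors deposited 1 table of raw counts by miRNA entry, per the file headers, with p-values, q-values and a log2 fold change of DESeq, DESeq2 and edgeR in further columns. One deposited column of q-values names no tool and was not used. The submitters' processing notes name Trim Galore 0.2.5 and Bowtie 1.1.1. Settings, genome build and miRNA reference were not given in the sources used here. Entries carry names of many species, so reads may be counted in more than 1 entry. Library totals over the 470 entries are not sequencing depth.

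From the counts, PPHN was compared with control in edgeR 4.0.16 (R 4.3.3; quasi-likelihood, robust) after filterByExpr (468 entries kept) and TMM scaling, with Benjamini-Hochberg adjustment over all tested entries and a threshold of 0.05. All 5 members passed the filter. SEs come from the fold change and its F statistic. Log2 CPM used a prior count of 2. Ratios of partners used a prior count of 0.5 and libraries with at least 10 counts of 1 partner, with exact two-sided permutation tests (scipy 1.17.1) over the libraries that remained, fewer than the 924 assignments of 6 against 6. Intervals are Clopper-Pearson 95% intervals and cover counting error only. DESeq2 1.42.0 and limma-voom (limma 3.58.1) were alternatives, and the edgeR step was tested on simulated data.

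Alternatives were other scalings, filters and covariates and leaving out libraries. The members, lists and tests were chosen with earlier results of these data known. Named entries are the members, all miR-126, miR-143 and miR-145 entries, the 5 entries most like and 3 least like each member averaging at least 10 CPM, and per list the most abundant entry and that of lowest p. The miR-126 entries differed between groups by log2 fold changes of -0.52 to 0.50, none past the threshold.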

Additional observations from a re-analysis of the deposited data

Results flagged for a closer look

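Dixon's 95% criterion was applied to 30 groups of 6 libraries (log2 CPM of the 5 members and of the miR-126, miR-143 and miR-145 entries), and 2 groups exceeded it; chance gives about 5% of groups. Both concern control 2, a library with little miR-126. Its level of mmu-miR-126b-3p was 161 CPM, while the remaining controls spanned 10588 to 98168 CPM. Its level of ccr-miR-126-3p was 3.36 CPM, while the remaining controls spanned 182 to 1799 CPM. None of the 5 members had such a library in either group.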

How the results depend on the processing

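No paired analysis was possible because the libraries are numbered 1 to 12 across the groups and no number is shared. With DESeq2, 12 entries were called in place of 0. Without PPHN 8, 1 entry was called, bmo-miR-2779, named after its values were seen; leaving out each library in turn gave 0 to 1 calls. No member was called under any setting. The log2 fold change of bta-miR-1468 stayed below 0 in all 22 alternatives (-2.53 to -0.97). That of hsa-miR-3065-5p, 0.0047, changed side with RLE scaling (-0.0072), upper-quartile scaling (-0.042), DESeq2 (-0.015) and the miR-143 covariate, added after seeing the data (-0.48), and ran from -0.34 to 0.88 as libraries were left out. That of rno-miR-338-3p, -0.0028, changed side with no filter (0.0027), limma-voom (0.64), the 3 libraries with little miR-126 left out (0.27) and the miR-126 covariate with all libraries (0.79) or without those 3 (0.80, added after seeing the data), and ran from -0.43 to 1.25. For bta-miR-2483-3p, limma-voom gave 0.73 and the miR-126 covariate without those 3 libraries 1.16 (leaving out 1 library, -1.54 to 0.40). For bta-miR-2483-5p, limma-voom gave 1.99, the covariate 0.49, and the covariate without those 3 libraries 1.90 (leaving out 1 library, -1.32 to 0.80). The causes were not tested. Requiring 10 CPM or more in 6 libraries or more left out rno-miR-338-3p and hsa-miR-3065-5p. The difference in the ratio of miR-3065 to miR-338 was -0.045 with no minimum of counts and -0.19 to 0.18 with 1 library left out; that of the miR-2483 arms stayed above 0 (0.095 to 0.46). The median of the epithelial list was 2.93 with limma-voom, 2.98 with the covariate and without the 3 libraries, and 0.24 to 3.46 with 1 library left out. For the other lists, the median moved by less than the spread between libraries. Depth limits rno-miR-338-3p most, with 385 counts in all.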
